A study of Drosophila melanogaster with 12 samples.

Results

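The 85 genes described here carry the symbols of proteins of the cytoplasmic ribosome and were measured in Drosophila melanogaster S2 cells. All encode such proteins except 3 relatives named -like. They were selected on symbol and count: the symbol begins with RpL or RpS, and the total over the 12 libraries was at least 120 counts. That rule kept 85 of the 92 genes with the prefix, of 16718 genes in the table. Since the members were chosen by total count, their abundance is given as a description. By symbol, 34 were assigned to the small (40S) subunit and 51, the -like genes included, to the large (60S) subunit. The lowest gene kept was RpS15Ab with 3180 counts, and the highest gene left out was RpS5b with 15 counts.

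A ribosome carries a single copy of almost every one of its proteins, so dividing cells make their mRNAs in large and roughly matched amounts. In flies many of these genes start at a pyrimidine-rich TCT initiator that is read with the TBP-related factor TRF2, and loss of a single allele of many of them gives the slow-growing, thin-bristled Minute phenotype. BEAF-32 is an insulator protein that binds near the starts of many housekeeping genes, the broad class to which ribosomal protein genes belong.

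S2 cells are an embryo-derived line with macrophage-like traits. Their RNA was measured by 3′ RNA-seq, which counts polyadenylated transcripts from their ends. The control cells were untreated S2 cells and received no double-stranded RNA (dsRNA), and none of the 4 groups was given dsRNA that matches no fly gene. Cells of the other groups received dsRNA against BEAF-32 (BEAF-32 RNAi), against row (row RNAi), which encodes a zinc finger partner of the chromatin protein HP1c, or against both (double RNAi). Per the labels' protocols, the dose was 4 µg per ml of cells, followed after 2 days by 8 µg per ml and after 2 more days by harvest. Each of the 4 groups had 3 libraries. Whether these were separate cultures is not in the labels, so the spread behind every p-value may be only technical.

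Total counts ran from 2276507 to 3963412 per library. Values per library are given as CPM, the count scaled to a common library total with the TMM method, which corrects for composition. BEAF-32 itself had a CPM of 42.8 to 66.0 in the control libraries, 14.9 to 24.7 in BEAF-32 RNAi, 50.9 to 64.6 in row RNAi and 26.1 to 33.3 in double RNAi. The row gene had a CPM of 47.2 to 52.5 in control, 37.2 to 47.2 in BEAF-32 RNAi, 22.3 to 33.1 in row RNAi and 25.4 to 34.5 in double RNAi. BEAF-32 passed the test of edgeR in both groups that received its dsRNA, whereas row passed in row RNAi (adjusted p = 0.0379) and not in double RNAi (adjusted p = 0.202). Of 13 plasmatocyte (fly macrophage) markers all had counts, with a summed CPM, here scaled to library totals alone, of 2851 to 3033 in control, 2657 to 2838 in BEAF-32 RNAi, 2674 to 2856 in row RNAi and 2477 to 3111 in double RNAi. NimC1 was nearly absent, with 14 counts over the 12 libraries and at most 2.46 CPM in any library. Cg25C, Pxn and LanA had the highest mean CPM of the list (809.9, 529.5 and 525.4). Among the plasmatocyte markers Glt fell in row RNAi and double RNAi (log2 change -0.61 and -0.64) and He fell in row RNAi (-1.96). They do not stand for the list. By TMM-scaled CPM, ush, Hml and srp had higher means in double RNAi (151, 73.5 and 76.0) than in control (123, 63.1 and 65.3). Pxn was lower there (483 against 585). The mean of He was higher in BEAF-32 RNAi (62.0) than in control (38.2), with 106 in a single library. The 4 muscle markers summed to at most 3.41 CPM in any library, with wupA at 0, and the 4 neuron markers to 23.7 to 39.9 CPM. The 7 germline markers all had counts and summed to 62.0 to 92.9 CPM, most of it from aub (45.2 to 74.1), while vas and nos reached at most 1.202 and 2.05. The 2 somatic gonad markers summed to 327 to 427 CPM, nearly all of it from zfh1.

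The ribosomal protein genes held 14292880 of 35264366 counts, or 40.5% of everything counted. In the control libraries they held 42.1%, 39.8% and 39.9% of counts. In BEAF-32 RNAi the shares were 41.5%, 41.4% and 40.7%, and in row RNAi they were 40.5%, 40.3% and 41.3%. In double RNAi they were 41.2%, 40.01% and 38.4%. The highest share was in control replicate 1 and the lowest in double RNAi replicate 3, and the ranges of all 4 groups overlapped. Control replicates 2 and 3 lay below every library of BEAF-32 RNAi and row RNAi, as did double RNAi replicates 2 and 3. The means were 40.6% ± 1.28 (SD, n = 3) in control, 41.2% ± 0.432 in BEAF-32 RNAi, 40.7% ± 0.530 in row RNAi and 39.9% ± 1.38 in double RNAi. Without control replicate 1 the control mean was 39.9%, like that of double RNAi. The 95% Wilson interval of each library's share was at most 0.0639 percentage points to either side and covers counting error only, so the spread between libraries of a group was far wider than counting error. A share is relative to the rest of the library, and in bulk RNA fewer cells and less RNA per cell cannot be told apart.

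**Figure D1:**
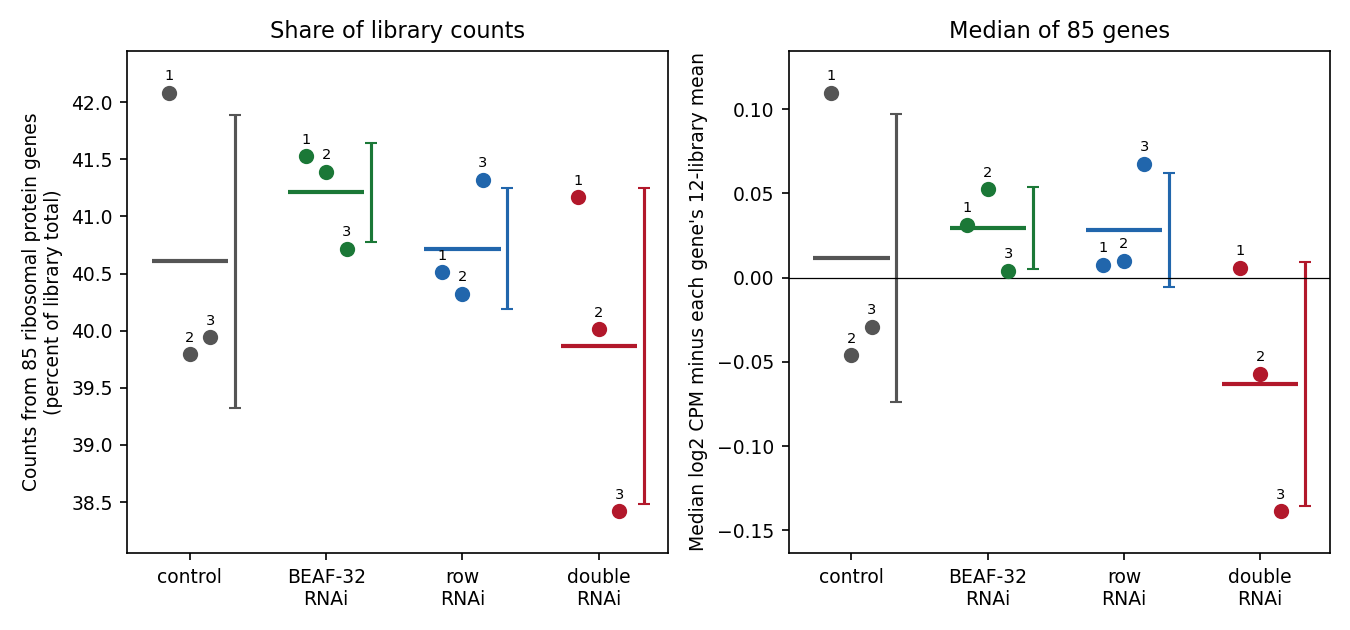
The left panel plots the percent of each library's counts that came from the 85 ribosomal protein genes, and the right panel plots the median over these genes of log2 CPM minus the gene's own mean over 12 libraries. Points are libraries with their replicate number, horizontal lines are group means and bars are SD (n = 3). Control replicate 1 (42.1%) and double RNAi replicate 3 (38.4%) are the extremes, and the groups overlap in both panels.

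Within the set the counts were spread over many genes. RpL5, which binds the 5S ribosomal RNA together with RpL11, held the most with 461384 counts, or 3.23% of the set. RpL41, the smallest ribosomal protein, followed with 441066 counts, then RpLP1 of the acidic stalk with 433412. The 40S proteins RpS23, at the decoding centre, and RpS3, at the mRNA entry channel, had 397304 and 393270. The top 5 genes held 14.9% of the set's counts, the top 20 held 42.9% and the top 40 held 68.4%. At the other end stood RpS15Ab (3180 counts), RpLP0-like (3336), RpL24-like (6651), RpL7-like (14417) and RpS19b (22011). These are counts of transcript ends and are not levels per length, so they rank shares of the library and not transcripts per cell.

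RpL5 illustrates how an abundant gene of the set behaved across libraries. Its CPM was 14175, 12583 and 12868 in control, 13972, 14038 and 13369 in BEAF-32 RNAi, 13207, 12901 and 13373 in row RNAi, and 13125, 12556 and 11569 in double RNAi. Control replicate 1 was the highest of all and double RNAi replicate 3 the lowest, as for the set, and the groups overlapped. Its log2 change was 0.06 (SE 0.049) in BEAF-32 RNAi, -0.01 in row RNAi and -0.09 in double RNAi, and none passed the test (adjusted p = 0.979, 1.00 and 0.637).

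Every one of the 85 genes passed the filter on low counts and was tested by the quasi-likelihood test of edgeR, with p-values adjusted by Benjamini-Hochberg over all 7377 tested genes. A gene is said to be called where its adjusted p was under 0.05. In BEAF-32 RNAi against control 0 of 85 ribosomal protein genes were called, where 0.0271% of all tested genes were, and 0 had an unadjusted p under 0.05, where 5.18% of all genes did. In row RNAi 0 were called (0.19% of all genes) and 0 had an unadjusted p under 0.05 (5.73% of all genes). In double RNAi 0 were called (0.271% of all genes), and 12 had an unadjusted p under 0.05, all of them lower (4.55% of all genes were lower by that rule). These counts moved with single libraries and with the tool. The shares of all genes above belong to the main fit, and those under the alternatives are not given here. In double RNAi the number lower was 2 without control replicate 1, 21 without control replicate 2, 34 without double RNAi replicate 1, 7 without its replicate 2 and 4 without its replicate 3, and it was 8 by DESeq2, 20 by limma-voom and 5 in a fit of those groups alone. Without control replicate 1, 9 genes in BEAF-32 RNAi and 5 in row RNAi were higher by unadjusted p. DESeq2 and limma-voom also called 0 in each of these 3 comparisons. With so few calls over all genes, a count of 0 in 85 is near the background and is no result about the set.

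The intervals show how closely the changes were bounded. The 95% interval of a gene's log2 change reached a median of 0.12 to either side. It lay wholly within 1.25-fold of control for 78 of 85 genes in BEAF-32 RNAi, 78 in row RNAi and 77 in double RNAi. Over all 7377 tested genes the same held for 788, 807 and 670. The 7 genes whose intervals reached further in each comparison were RpL38, RpL24, RpLP2, RpL41, RpS15Ab, RpS19b and RpLP0-like, joined in double RNAi by RpS20. The 3 comparisons share the control libraries.

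**Figure D2:**
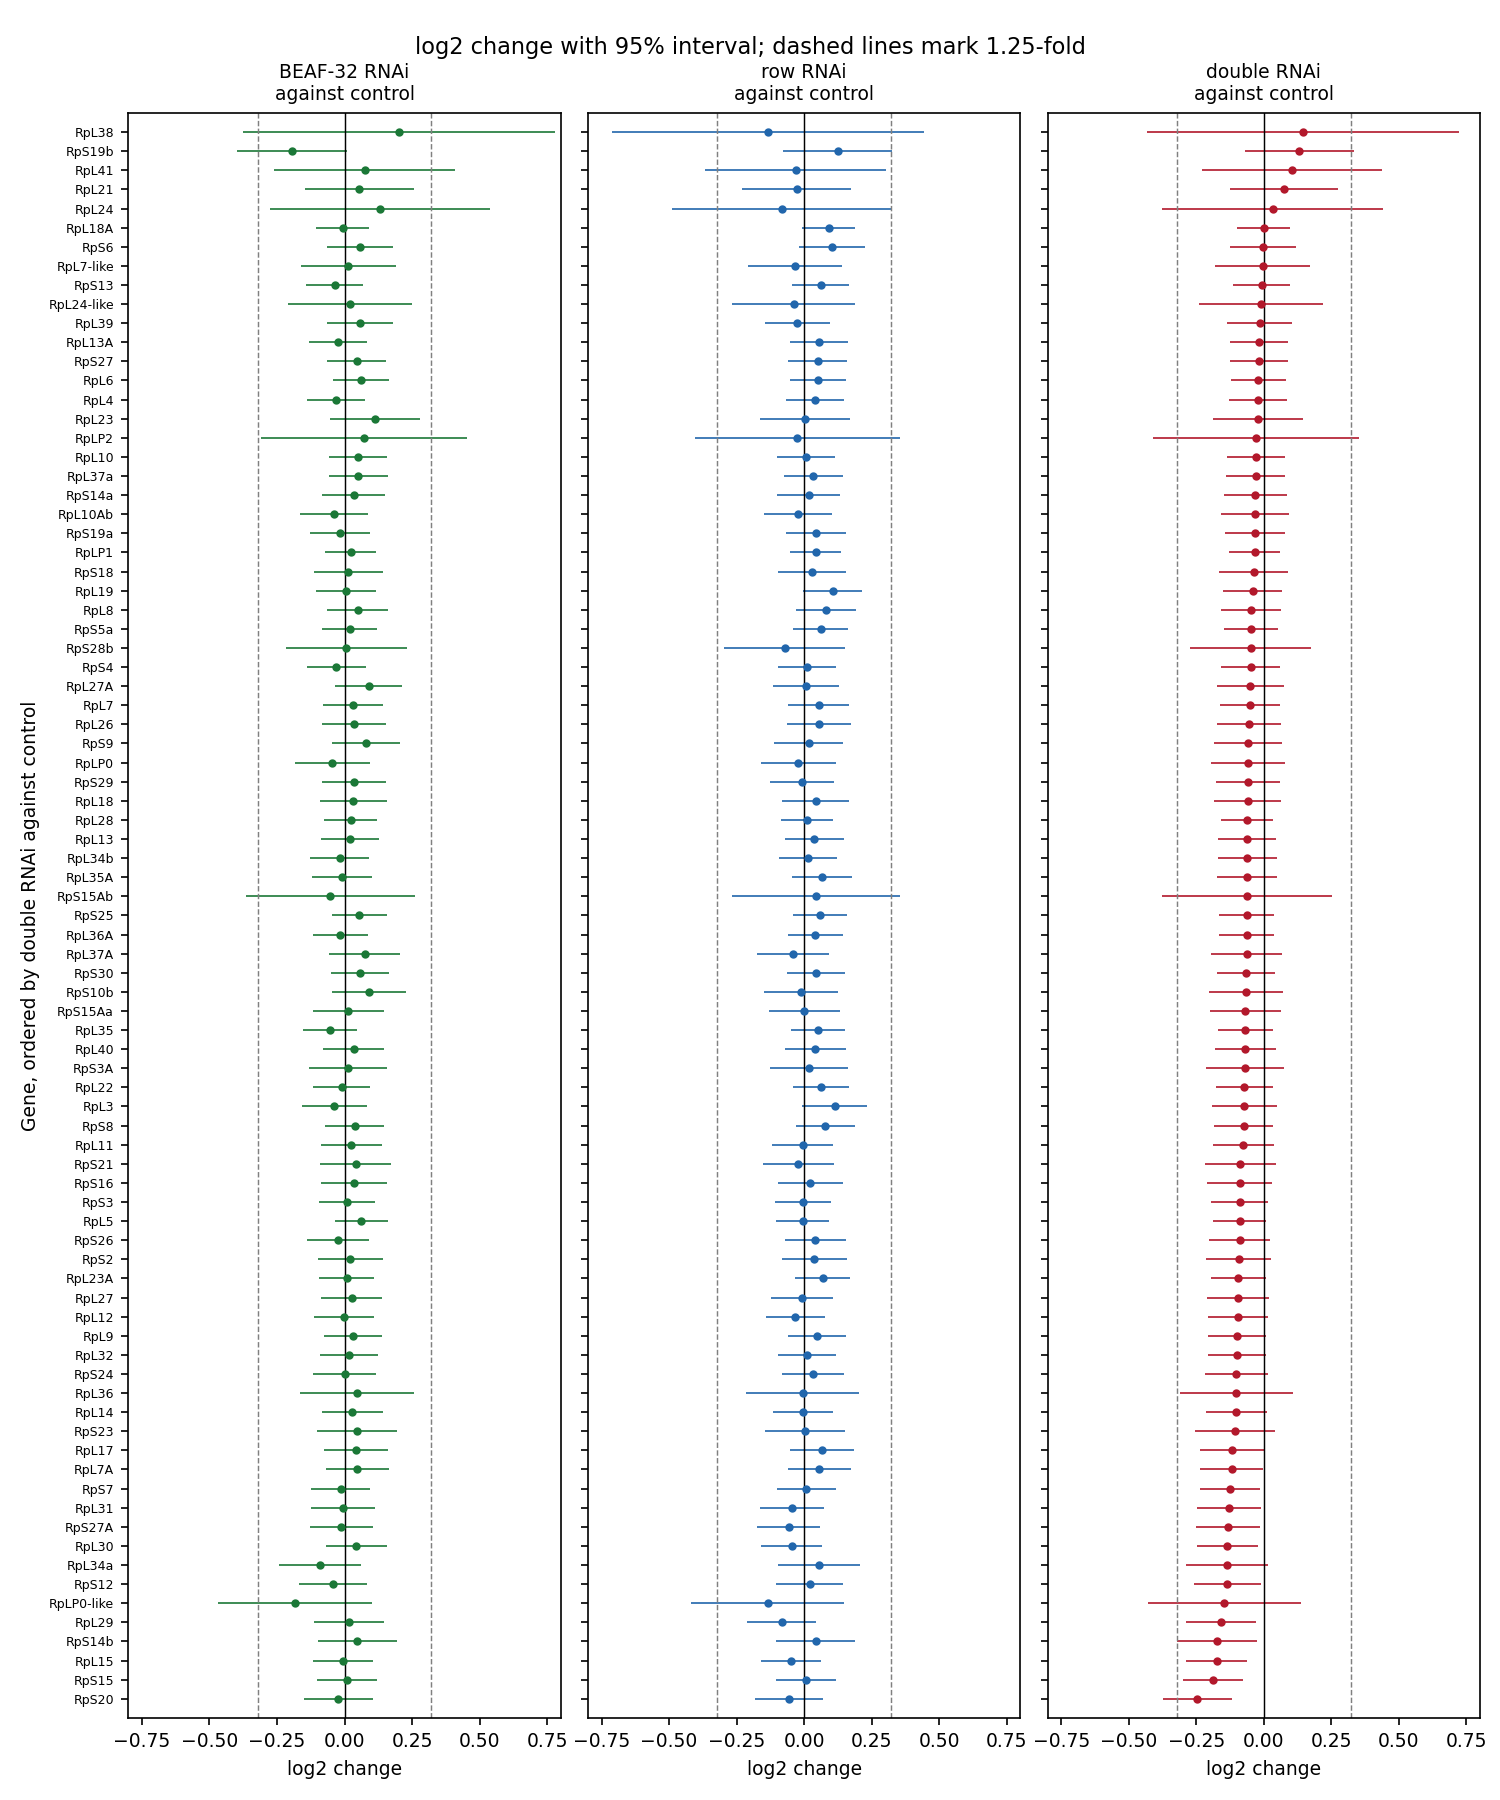
Each row is 1 of 83 ribosomal protein genes drawn, ordered by its log2 change in double RNAi, and the panels show BEAF-32 RNAi, row RNAi and double RNAi against the same control libraries. Points are log2 changes and bars their 95% intervals, with dashed lines at 1.25-fold. Points scatter around 0 in the first 2 panels and 77 of 83 lie below 0 in the third, where the intervals of most genes still include 0.

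In BEAF-32 RNAi the set's median log2 change was 0.02, and 26 of 85 genes were below 0 against 50.1% of all tested genes. The lowest changes were those of RpS19b (-0.20), RpLP0-like (-0.18) and RpL34a (-0.09), and the highest were those of RpL38 (0.20), RpL24 (0.13) and RpL23 (0.11). The smallest adjusted p of any member was 0.929. In row RNAi the median was 0.02, with 30 of 85 below 0 against 51% of all genes. The lowest were RpL38 (-0.14), RpLP0-like (-0.13) and RpL29 (-0.08), and the highest were RpS19b (0.12), RpL3 (0.11), a protein near the peptidyl transferase centre, and RpL19 (0.11). The smallest adjusted p was 0.850. Without control replicate 1 the medians were 0.07 in both comparisons, with 12 and 3 of 85 below 0, and RpL38 (0.08) and RpL29 (0.02) in row RNAi changed sign.

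In double RNAi the median was -0.06, a fold of 0.957, and 79 of 85 genes were below 0 against 50.1% of all tested genes. Of the small-subunit genes 33 of 34 were below 0 (median -0.07), and of the large-subunit genes 46 of 51 (median -0.06). The size and the count moved with single libraries. With library totals in place of TMM the median was -0.03 with 62 below 0, while all tested genes had a median of 0.03. Without double RNAi replicate 1 the median was -0.11 with 81 below 0, and without control replicate 2 it was -0.09 with 81 below 0. Without control replicate 1 it was -0.02 with 60 below 0, without double RNAi replicate 3 it was -0.03 with 66 below 0, and without both (an alternative chosen after seeing the data) it was 0.01 with 33 below 0. Control replicate 1 had the lowest TMM factor (0.962), and double RNAi replicate 3 had the highest (1.055) and the largest total count. The part of scaling and depth in the shift was not tested.

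The same 2 libraries stood apart gene by gene. In control replicate 1, 80 of 85 genes were above their own mean over the 12 libraries, whereas in control replicates 2 and 3 the numbers were 4 and 20. In double RNAi replicate 3, 5 of 85 were above, and in its replicates 1 and 2 the numbers were 51 and 11. The library medians of log2 CPM minus the gene's mean were 0.11, -0.05 and -0.03 in control and 0.01, -0.06 and -0.14 in double RNAi. In BEAF-32 RNAi they were 0.03, 0.05 and 0.00, and in row RNAi 0.01, 0.01 and 0.07. The control libraries so spanned more than the difference between any 2 group means of these medians.

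**Figure D3:**
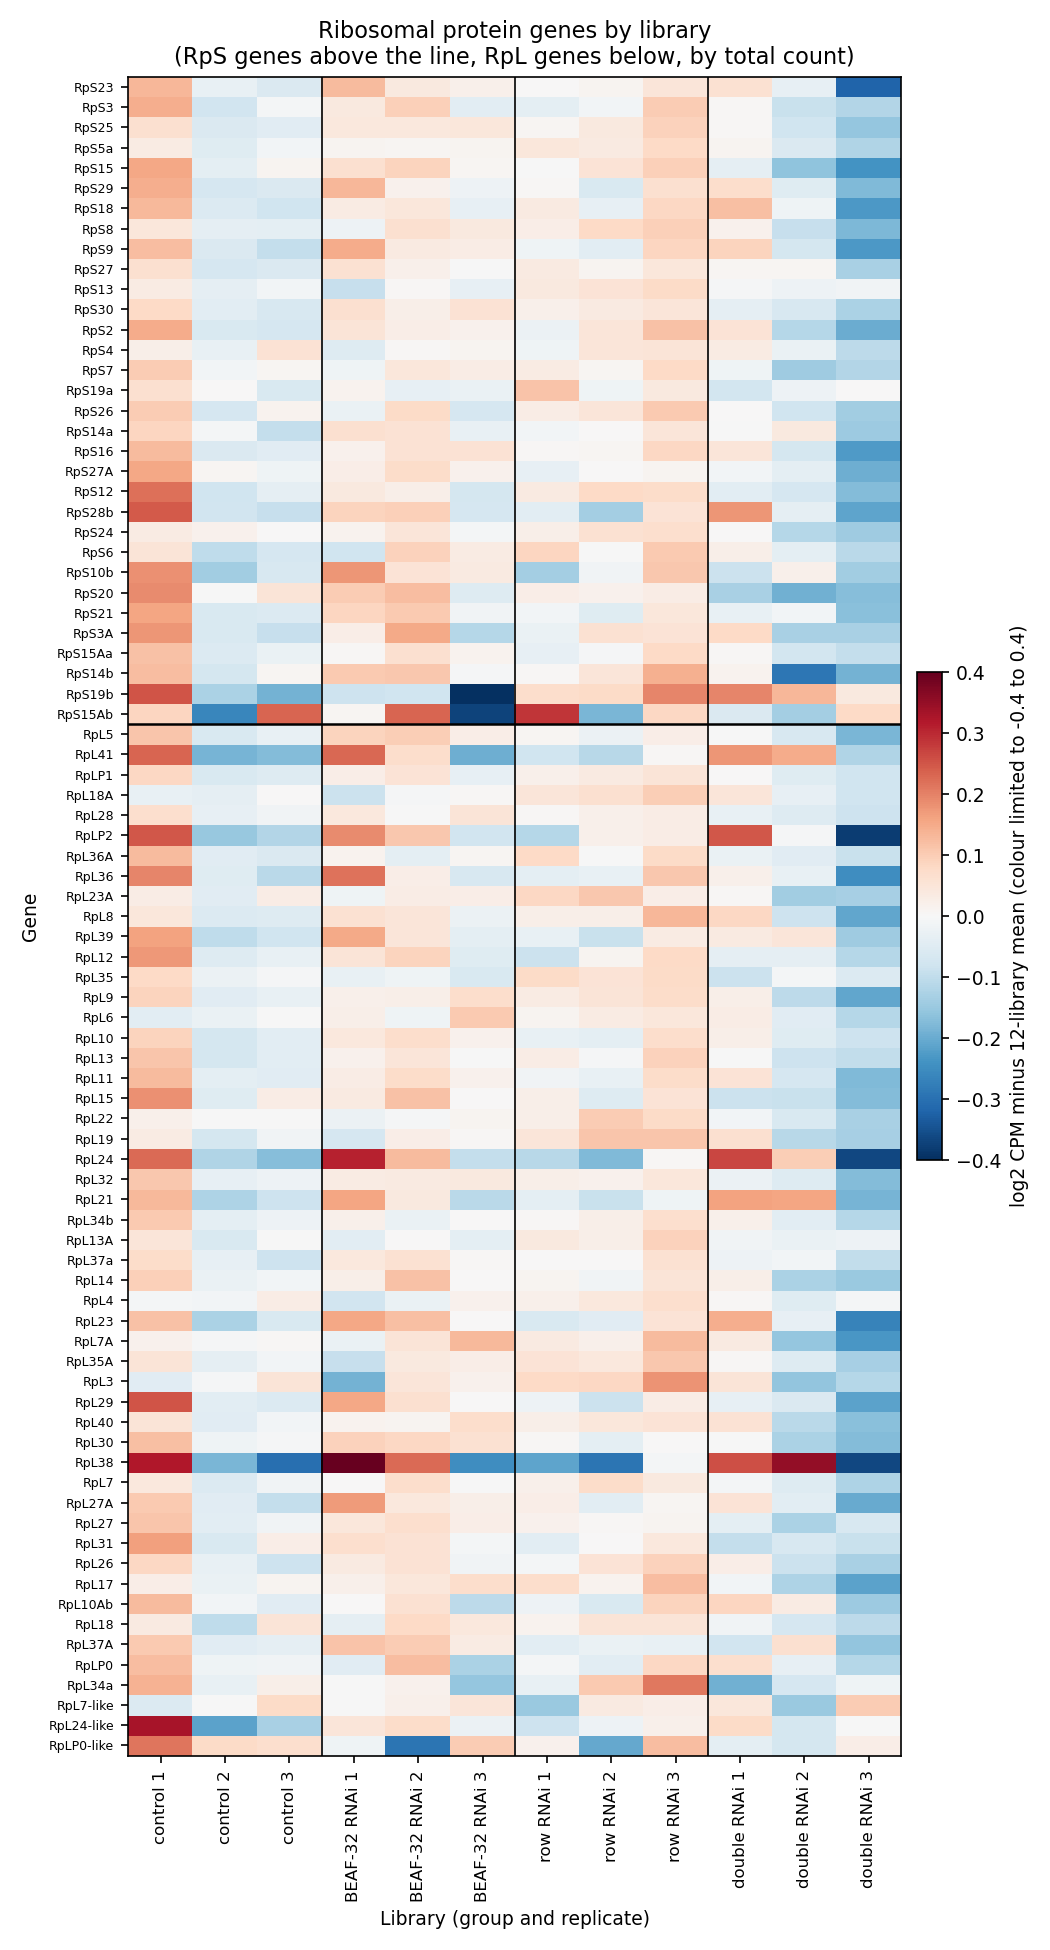
Rows are 83 of the 85 genes, small-subunit genes above the line and large-subunit genes below it, each ordered by total count, and columns are the 12 libraries. Colour is log2 CPM minus the gene's mean over the libraries, limited to -0.4 to 0.4. Control replicate 1 is mostly red (78 of 83 genes above their mean) and double RNAi replicate 3 mostly blue (5 of 83 above). RpL38, RpL24, RpLP2 and RpL41 share both directions and differ more between libraries of a group than most genes.

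Among the small-subunit genes RpS20, a protein of the 40S head, had the largest difference in double RNAi. Its CPM was 2201, 1930.2 and 2002 in control, 2071, 2103 and 1864 in BEAF-32 RNAi, 1968, 1956 and 1972 in row RNAi, and 1765, 1692 and 1717 in double RNAi. All 3 double RNAi libraries lay below all 9 others. The log2 change against control was -0.25 (SE 0.063, 95% interval -0.37 to -0.12), which missed the threshold by edgeR's test (adjusted p = 0.0818). Against BEAF-32 RNAi it was -0.22 (adjusted p = 0.157) and against row RNAi -0.19 (adjusted p = 0.586). In the reference annotation RpS20 overlaps a protein-coding gene on the opposite strand and holds 2 small nucleolar RNAs (snoRNAs), and since the use of strand is not given its count is uncertain to that extent.

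RpS15, also of the 40S head, was next. Its CPM was 6451, 5638 and 5847 in control, 6063, 6171 and 5833 in BEAF-32 RNAi, 5789, 6022 and 6195 in row RNAi, and 5658, 5189 and 4910.5 in double RNAi. The highest double RNAi library lay just above the lowest control library, so those groups overlapped. The log2 change against control was -0.19 (SE 0.056), with an adjusted p of 0.173 by edgeR. Without double RNAi replicate 1 it was called in that comparison (-0.25, adjusted p = 0.0277), and without control replicate 1 its change was -0.13. RpS15 also overlaps a gene on the opposite strand.

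Other small-subunit genes differed less. RpS6, the substrate of S6 kinase downstream of TOR, had log2 changes of 0.06, 0.10 and -0.00 in BEAF-32, row and double RNAi. RpS12, through which fly cells that have lost a ribosomal protein allele are recognised in cell competition, had -0.04, 0.02 and -0.14. Its CPM was 3696, 3001 and 3091 in control and 3079.7, 3024 and 2809 in double RNAi, so those groups overlapped (adjusted p = 0.536 by edgeR), and without control replicate 1 the change was -0.04. RpS23 and RpS3, the most counted of the subunit, had changes of -0.11 and -0.09 in double RNAi (adjusted p = 0.726 and 0.662), and of -0.04 and -0.02 without control replicate 1.

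Among the large-subunit genes RpL15 had the largest difference in double RNAi. It is a core 60S protein whose gene the count table places in the heterochromatin of arm 3L. Its CPM was 6109.9, 5203 and 5494 in control, 5515, 5838 and 5386 in BEAF-32 RNAi, 5471, 5195 and 5593 in row RNAi, and 5068, 5053 and 4771 in double RNAi. All 3 double RNAi libraries lay below all others. The log2 change against control was -0.17 (SE 0.056), with an adjusted p of 0.230 by edgeR, and without control replicate 1 it was -0.11. RpL29 had -0.16 (adjusted p = 0.496 by edgeR), and -0.05 without control replicate 1.

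The ribosomal stalk recruits the elongation factors and is formed by RpLP1 and RpLP2 on the base RpLP0. RpLP0 had log2 changes of -0.05, -0.02 and -0.06 in BEAF-32, row and double RNAi, and RpLP1 had 0.02, 0.04 and -0.03. RpLP2 had 0.07, -0.02 and -0.03. Of the 5S RNA partners RpL5 and RpL11, the latter had 0.02, -0.00 and -0.08. RpL40, RpS27A and RpS30 are made as fusions with ubiquitin or a ubiquitin-like protein, and all 3 were below 0 in double RNAi, from -0.13 (RpS27A) to -0.07. None of these genes was called.

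**Figure D4:**
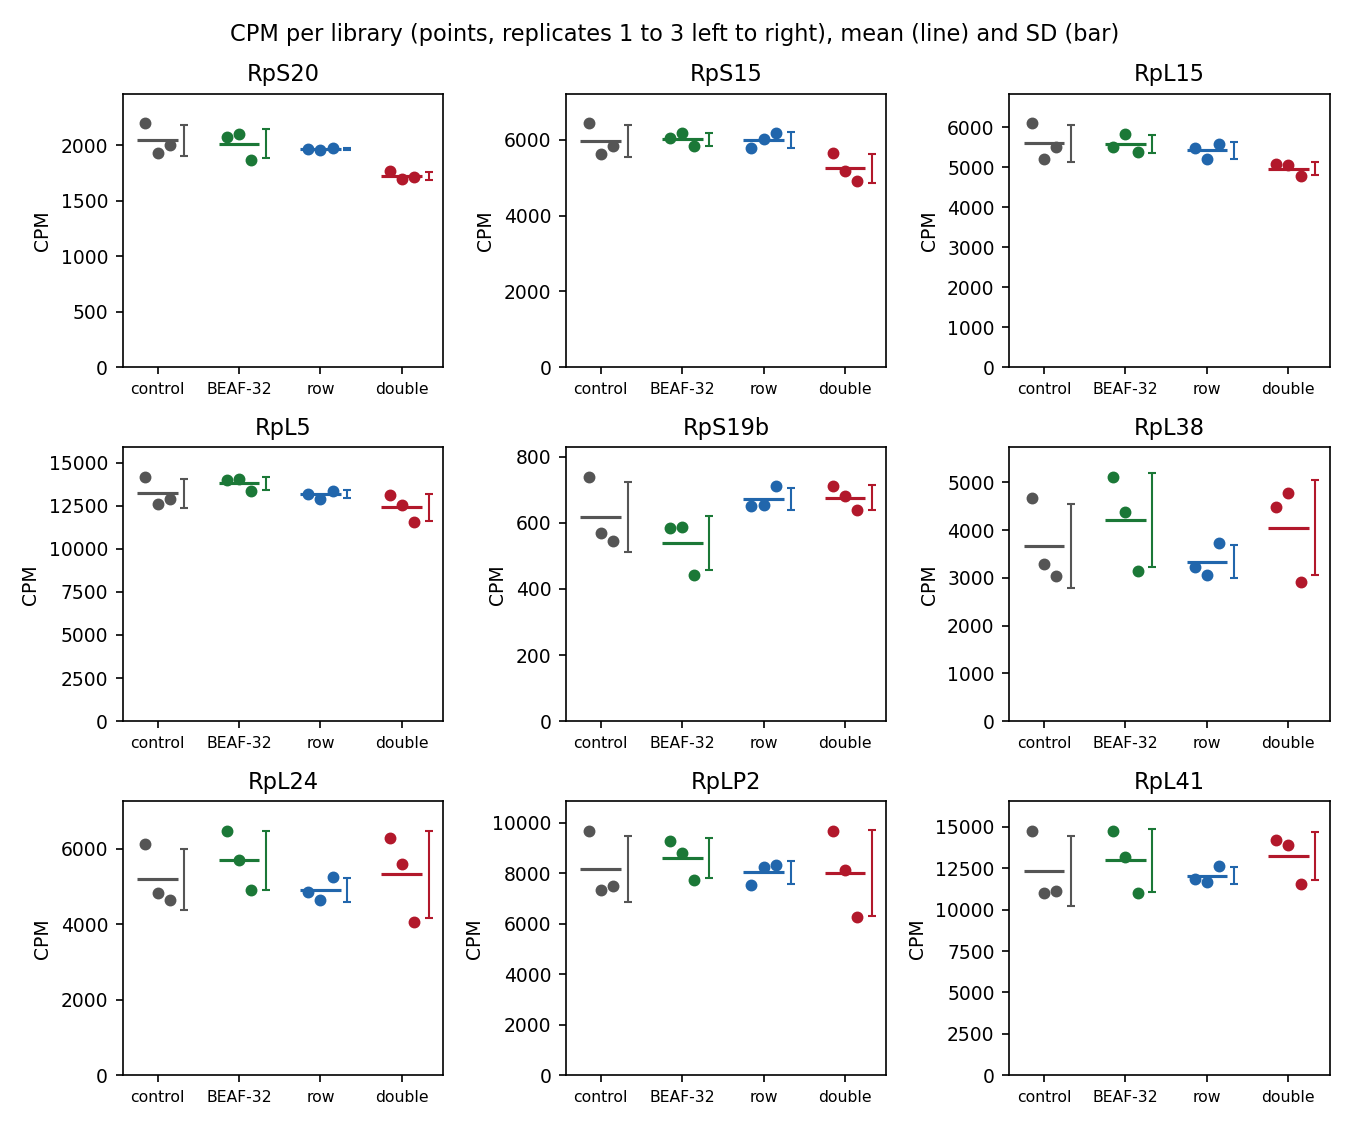
CPM of 9 ribosomal protein genes in each library, with replicates 1 to 3 from left to right in each group, a line at the group mean and a bar for the SD (n = 3). In the plots of RpS20 and RpL15 all 3 double RNAi libraries lie below all others. RpL38, RpL24, RpLP2 and RpL41 differ between libraries of a group by more than the group means do.

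A few large-subunit genes varied between replicates more than most of the set. The SD of log2 CPM within groups had a median of 0.073 over the 85 genes, from 0.0317 for RpS13 to 0.319 for RpL38. RpL38 was followed by RpS15Ab (0.237), RpL24 (0.225), RpLP2 (0.209) and RpL41 (0.183). RpS15Ab is among the lowest counts of the set, with a counting CV of 6.14%, but the counting CV of the other 4 was under 1%: it was 0.954% for RpL38, whose observed CV was 22.2%. For comparison, the median SD was 0.287 over all tested genes and 0.0763 over the 46 other genes with a mean CPM of at least 1000, so abundant genes as a class varied little.

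RpL38, a small 60S surface protein known in mice for its effect on translation of Hox mRNAs, shows the pattern. Its CPM was 4669, 3294 and 3037 in control, 5115, 4375 and 3151 in BEAF-32 RNAi, 3232, 3059 and 3725 in row RNAi, and 4474, 4778 and 2910.4 in double RNAi. High and low libraries stood side by side in 3 of the 4 groups, and the groups overlapped. RpL24, which bridges the subunits, had 6133, 4819.6 and 4657 in control and 6302, 5612 and 4065 in double RNAi. RpL41 had 14765, 11037 and 11149.7 in control, and 14218, 13933 and 11573 in double RNAi. For these 3 genes the first library of control, BEAF-32 RNAi and double RNAi was high and the third low. RpLP2 did the same, with 9677, 7324 and 7504 in control, 9271, 8779.5 and 7716 in BEAF-32 RNAi, and 9671, 8119.6 and 6253 in double RNAi. The order was not particular to these genes. RpL21, with an SD of 0.1395, had 5427, 4550 and 4675 in control, 5533, 5093 and 4599 in BEAF-32 RNAi, and 5547, 5530 and 4358 in double RNAi. Across the 84 genes with a gene model the SD within groups was only weakly related to transcript length (Spearman rho = -0.15) or coding length (rho = -0.18), as a description over genes that share the same libraries.

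The ratio of large-subunit to small-subunit counts was nearly constant. It was 1.73, 1.72 and 1.73 in control, 1.75, 1.73 and 1.72 in BEAF-32 RNAi, 1.73, 1.72 and 1.72 in row RNAi, and 1.76, 1.77 and 1.75 in double RNAi. The 3 double RNAi libraries were the highest of the 12. Without RpL38, RpL24, RpLP2 and RpL41, left out after their spread was seen, the ratio was 1.51 to 1.55 in control, 1.52 to 1.54 in BEAF-32 RNAi, 1.53 to 1.54 in row RNAi and 1.53 to 1.57 in double RNAi, and the groups overlapped.

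Several subunits are encoded by a pair of gene copies, and in each pair a single copy held most of the counts. RpS14b held 22.8% of the counts of RpS14a and RpS14b, which lie next to each other on the X chromosome. RpL34a held 15.9% of its pair with RpL34b, RpS19b 13.2% of its pair with RpS19a, and RpS15Ab 5.63% of its pair with RpS15Aa. The members named -like encode relatives that act in ribosome assembly in yeast and not in the finished ribosome. RpL7-like held 10.2% of the counts shared with RpL7, RpLP0-like 6.03% of those with RpLP0 and RpL24-like 3.50% of those with RpL24. Copies that are near-identical could share reads, and these shares are uncertain to that extent.

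**Figure D5:**
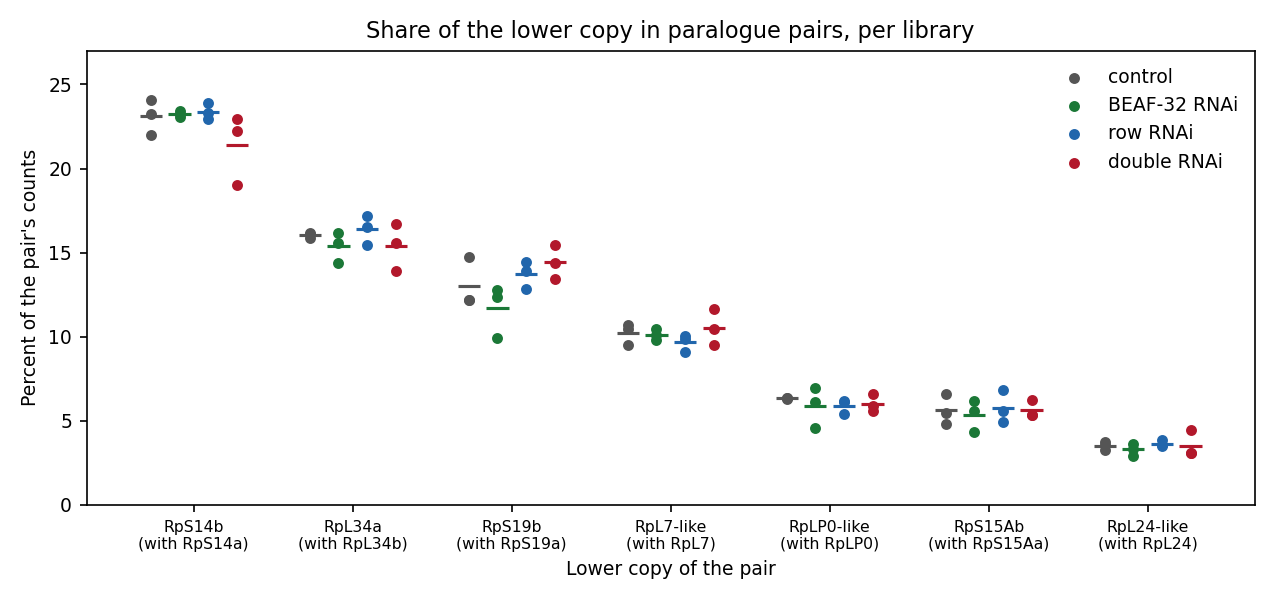
The vertical axis is the percent of a gene pair's counts that came from the copy named first, in each library, with a line at the group mean (n = 3). The groups overlap in most pairs, and for RpS19b the lowest library is 1 of BEAF-32 RNAi (9.93%), whose other libraries overlap those of control.

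RpS19b, the copy known for germline expression in flies, was the copy with the widest differences between groups. Its CPM was 739, 568 and 545 in control, 586, 588 and 444 in BEAF-32 RNAi, 652, 655 and 710.3 in row RNAi, and 711, 680.2 and 638 in double RNAi. The BEAF-32 RNAi libraries lay below all row RNAi and double RNAi libraries and overlapped the control libraries. Its share of the pair was 13.02% ± 1.48 in control, 11.7% ± 1.55 in BEAF-32 RNAi, 13.7% ± 0.823 in row RNAi and 14.4% ± 0.991 in double RNAi (SD, n = 3). The log2 difference was 0.32 (95% interval 0.12 to 0.52) between row RNAi and BEAF-32 RNAi and 0.33 (0.12 to 0.53) between double RNAi and BEAF-32 RNAi. Neither was called by edgeR (adjusted p = 0.274 and 0.272), but both were without a filter on low counts (adjusted p = 0.0252 and 0.0358). Without BEAF-32 RNAi replicate 3 the first difference was 0.20. RpS19a, the abundant copy, differed by 0.06 and -0.01.

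The 7 genes below the count minimum were nearly silent. RpS5b, an ovary-enriched copy of RpS5a, had 15 counts over the 12 libraries, or 0.00627% of its pair. RpS10a had 11 counts, or 0.0131% of its pair with RpS10b, and RpL22-like, known from the testis, had 2. RpL10Aa, RpL37b, RpS28a and RpS28-like had 0. For RpL10Aa, RpL37b and RpS28a a count of 0 allows a share of up to 0.00302%, 0.00191% and 0.00292% of the pair, by counting error alone.

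Median differences were also small between dsRNA groups. In row RNAi against BEAF-32 RNAi 0 of 85 were called (0.339% of all genes), 4 had an unadjusted p under 0.05 (7.36% of all genes), and 43 were below 0 against 51% of all genes, with a median of -0.00. In double RNAi against BEAF-32 RNAi 0 were called (0.122% of all genes). By unadjusted p 27 were lower (3.92% of all genes), and 76 were below 0 against 50.3%, with a median of -0.09. In double RNAi against row RNAi 0 were called, as over all genes (0%), 26 were lower by unadjusted p (3.35% of all genes), and 76 were below 0 against 50.2%, with a median of -0.08. These comparisons share the double RNAi libraries with each other and with the comparison against control. Without double RNAi replicate 3 the medians of these last 2 were -0.06 in each, and without its replicate 1 they were -0.14 and -0.13. Without control replicate 1 and double RNAi replicate 3 together (chosen after seeing the data) 69 and 68 of 85 were below 0. The medians were then -0.06 in each. The number lower by unadjusted p against BEAF-32 RNAi was 43 without double RNAi replicate 1, 8 without its replicate 3, and 16 and 17 without BEAF-32 RNAi replicates 1 and 2. It was 15 by DESeq2, 40 by limma-voom and 17 with library totals. Shares of all genes under these alternatives are not given here. The number against row RNAi was 47 without double RNAi replicate 1, 13 without its replicate 2, 9 without its replicate 3 and 12 without row RNAi replicate 3, and 12 with library totals and 39 by limma-voom.

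The interaction asks whether the double RNAi change differed from the sum of the single ones on the log2 scale. In it 0 of 85 were called, as over all genes (0%), 13 were lower by unadjusted p (2.29% of all genes), and 75 were below 0 against 49.5%, with a median of -0.11. The number lower was 43 without control replicate 1, 4 and 7 without control replicates 2 and 3, 6 without row RNAi replicate 3, 37 without double RNAi replicate 1, and 8 and 5 without double RNAi replicates 2 and 3. It was 8 by DESeq2 and 30 by limma-voom. Shares of all genes under these alternatives, and under those of the joint test below, are not given here. The lowest members of the interaction were RpS14b (-0.26), RpL17 (-0.23) and RpL7A (-0.22), with adjusted p near 1 by edgeR. With library totals in place of TMM the median was -0.06, and that of all genes was 0.06. Without double RNAi replicate 3 the members' median was -0.08 with 71 below 0. Without that library and control replicate 1 together (chosen after seeing the data) it was -0.13 with 79 below 0. The joint test of any difference among the 4 groups called 0 (0.38% of all genes), and 16 had an unadjusted p under 0.05 (7.74% of all genes). That count was 26 without control replicate 1, 37, 6 and 7 without double RNAi replicates 1, 2 and 3, 9 by DESeq2 and 31 by limma-voom. Its smallest adjusted p was 0.123 (RpS20) by edgeR, and limma-voom called RpS15 (adjusted p = 0.0423).

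The genes lie across the genome, with 19 on 2R, 19 on 3R, 18 on 2L, 14 on X and 13 on 3L, RpS3A on chromosome 4 and RpL15 in the heterochromatin of 3L. In double RNAi the median log2 change on these 5 arms ran from -0.08 (2R) to -0.06 (3L), while that of all tested genes on them ran from -0.01 to 0.01. The medians of the 5 arms were similar, and the difference between arms was not tested. In BEAF-32 RNAi the medians of the ribosomal protein genes ran from 0.01 (3R) to 0.04 (X).

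Gene models were read from the BDGP6.54 annotation for 84 of the 85 genes, all but RpL37a. These genes are compact, with a median transcript length of 828.5 bases against 1970 over all tested genes, a median 5′ UTR of 84 against 151 bases, and a median of 3 exons against 4. Of the 84, 28 hold a snoRNA inside the gene (33.3%, against 1.22% of all tested genes), 74 snoRNAs in all, with 14 in RpS5a and 7 in RpS7. snoRNAs guide the modification of ribosomal RNA. All 28 host genes were below 0 in double RNAi (median -0.07), as were 50 of the 56 other genes (median -0.06).

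BEAF-32 is known to bind between genes that start close together in opposite directions. Of the 84 genes 53 (63.1%) have a gene on the other strand that starts within 1000 bases in this way, against 49.2% of all tested genes. In BEAF-32 RNAi these 53 had a median log2 change of 0.02 with 20 below 0, and the 31 others had 0.04 with 6 below 0. In row RNAi the medians were 0.04 and 0.00, and in double RNAi -0.06 and -0.07. RpL12 and RpL39, and RpS14a and RpS14b, are the pairs of neighbours within the set. The bodies of 23 genes (27.4%, against 47.6% of all tested genes) overlap another protein-coding gene, among them RpS20, RpS15, RpL41, RpL24 and RpL29.

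Other genes of the translation machinery were compared as lists. Outside the prefix, sta, which encodes a small-subunit protein, and Rack1, a scaffold on the 40S subunit, had log2 changes of -0.16 and -0.06 in double RNAi, and Rack1 had 0.14 in row RNAi, with 0 of 2 called. Of 73 mitochondrial ribosomal protein genes, which serve a separate ribosome, 0 were called in any comparison with control. Over all tested genes 0.0271%, 0.19% and 0.271% were called in BEAF-32, row and double RNAi. The counts of 0 in these lists are near that background and are no result about them. The mitochondrial medians were -0.03, -0.04 and -0.09 in BEAF-32, row and double RNAi, with 44, 42 and 48 below 0. Of all tested genes 50.1%, 51% and 50.1% were below 0. The members with the smallest p were mRpL22 (0.47) in BEAF-32 RNAi, mRpL9 (-0.51) in row RNAi and mRpL15 (-0.48) in double RNAi. Their SD within groups (median 0.229) was larger than that of the cytoplasmic set.

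Of 11 genes of translation elongation, 29 of ribosome biogenesis and 14 regulators of ribosomal protein genes, 0 were called in any comparison with control. That is near the share of all genes called (0.0271%, 0.19% and 0.271%) and is no result about the lists. The medians in double RNAi were -0.07, -0.06 and 0.06. Ef1alpha48D, the elongation factor that delivers aminoacyl-tRNA, had the most counts of the table, with 2.05% to 2.40% of a library. Among elongation genes pAbp, the poly(A)-binding protein, had 0.19 in double RNAi (adjusted p = 0.244), and among biogenesis genes RpI1, the large subunit of RNA polymerase I, had -0.44 (adjusted p = 0.527).

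The regulators came closest to the threshold. Dref, a transcription factor that binds many housekeeping promoters, had a CPM of 53.5, 49.97 and 61.2 in control, 63.2, 52.5 and 50.7 in BEAF-32 RNAi, 53.9, 38.6 and 52.8 in row RNAi, and 35.0, 32.8 and 31.4 in double RNAi. The double RNAi libraries lay below all others, with a log2 change of -0.73 (adjusted p = 0.103 by edgeR). Myc, an activator of ribosome synthesis, had 252, 260 and 273 in control and 288, 348 and 371 in double RNAi. Those groups did not overlap, and the log2 change was 0.36 (adjusted p = 0.107 by edgeR). In row RNAi Myc also lay above all control libraries (306, 330 and 331), and in BEAF-32 RNAi it overlapped them (319, 264 and 259). Mnt, which opposes Myc, had 0.75 in row RNAi (adjusted p = 0.270). Of the 2 tested genes that respond to loss of ribosomal proteins, Xrp1 had 0.06, 0.29 and 0.30 in BEAF-32, row and double RNAi and CG6272 (Irbp18) had 0.31, 0.23 and 0.37. Neither was called, with adjusted p of 0.183 for Xrp1 and 0.698 for CG6272 in double RNAi.

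The 8-base molecular identifier of the libraries has 65536 forms, and the sources used here do not give whether counts were collapsed by it. Of the 1020 values of the 85 genes 0 exceeded that number, and 5 values of the other genes did, all of them of Ef1alpha48D, so a gene's count was not held to it. The highest was RpLP1 in double RNAi replicate 3 with 48594 counts, or 74.2% of the forms.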

How the data were processed

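Counts per gene were those the authors deposited, 1 column per library, not normalized, with 16718 genes and no summary entries. Reads had been aligned with STAR (version not given) to the build dm3, per the submitters' processing notes. How reads were counted, against which annotation, with or without strand and with or without collapsing of molecular identifiers, is not given in these sources. Columns were tied to samples by name, and groups were taken from the labels. All pairs of libraries within a group differed by more than sampling noise (chi-square per degree of freedom of at least 3.74).

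Tests used edgeR 4.0.16 in R 4.3.3. The filter on low counts was filterByExpr (by group, minimum count 10) and the scaling was TMM, with factors from 0.962 to 1.055. All 12 libraries entered a single robust quasi-likelihood fit without a block, with 8 residual degrees of freedom. Benjamini-Hochberg adjustment ran over all 7377 tested genes, and the threshold was 0.05. SE is the absolute log2 change over the square root of F. The median and count over the ribosomal protein genes are descriptions and got no test. The fit was also run on simulated data in which 200 genes were changed, every gene was drawn independently and no shift was shared by a library's genes. That run does not bear on the small shared shifts described here.

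Alternatives changed the scaling (size factors of DESeq2, library totals, or TMM on genes outside the set), the filter (none, or CPM of at least 10 in 3 libraries), the tool (DESeq2 1.42.0 or limma-voom of limma 3.58.1), the design (a replicate block, or a fit of the compared groups alone) and the threshold (0.01), and left out every library once. The members, lists and alternatives were chosen with earlier results of these data known. Genes named were those called in any comparison, the 3 highest and 3 lowest changes against control, the 5 most and 5 least counted, the 3 with the largest SD within groups, all gene pairs, and RpS6, RpS12, RpLP0, RpL41 and RpS20. Of each other list up to 2 genes with the smallest p were named. RpLP2, RpL11, RpS13, RpL17, RpL7A, RpS7, RpS3A, RpL12, RpL39, RpL30, RpL21, Ef1alpha48D and the ubiquitin-type fusions fall outside that rule and were named by role or position or after their values were seen. Gene models came from the annotation BDGP6.54, another build, so no coordinates are given. Promoter and protein sequences were not analysed here. The values of 2 genes of the set are not reported here and are not drawn, though counts over the set include them.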

Additional observations from a re-analysis of the deposited data

Results flagged for a closer look

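RpS10a, the copy of RpS10b that fell below the count minimum, had 11 counts in the 9 libraries of cells given dsRNA and 0 in the 3 control libraries. Of these counts 8 came from row RNAi, 2 from BEAF-32 RNAi and 1 from double RNAi, and a single row RNAi library held 6. It stands here because it lies outside the set tested and was above the level in the control samples. With so few counts the difference was not tested.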

How the results depend on the processing

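Of 885 alternative values 852 were labelled unchanged. For a gene this meant the same sign and side of the threshold, and for calls an equal number. For a median it meant a move under 0.0598, the pooled SD of the library medians. For a share it meant a move within the group's SD. A median could so change sign and keep the label. The tolerance was nearly the size of the main median in double RNAi against control (-0.0629). The threshold of 0.01 reads the same fit, so its medians, changes and counts of 0 could not move. The number labelled unchanged is therefore no measure of stability. Without control replicate 2 the medians turned from 0.0225 to -0.0028 in BEAF-32 RNAi and from 0.0166 to -0.0113 in row RNAi. In BEAF-32 RNAi and row RNAi against control, double RNAi against row RNAi and the interaction, 0 genes were called under every alternative run. In double RNAi against BEAF-32 RNAi 1 gene was called with library totals alone (RpS19b), 1 without a filter (RpS19b) and 1 by limma-voom, which called 13 over all genes. With a library left out 0 to 6 were called, the 6 without double RNAi replicate 1 (RpS14b, RpS15, RpL7A and RpL30 among them). Without a filter 1 gene (RpS19b) was also called in row RNAi against BEAF-32 RNAi and 1 (RpS19b) in the joint test of the groups. In that joint test limma-voom called 1 (RpS15), of 30 over all genes, and leaving out a library gave 0 to 2. In double RNAi against control leaving out a library gave 0 to 1: RpS20 without BEAF-32 RNAi replicate 3 and RpS15 without double RNAi replicate 1. For alternatives other than the tools the calls over all genes are not given here, so these numbers cannot be set against a background. The causes were not tested.

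Leaving out control replicate 1 and double RNAi replicate 3 together, chosen after seeing the data, gave a median log2 change in double RNAi of 0.0089 and 1 call (RpL21), 1 call in row RNAi against BEAF-32 RNAi (RpS19b) and 2 in the joint test (RpL21 and RpS19b). In row RNAi against control RpL38 and RpL29 turned from lower to higher without control replicate 1 (0.0776 and 0.0245) and without both libraries (0.0783 and 0.0254), with no call under either. With a library left out RpL38 ranged from -0.26 to 0.0776 and RpL29 from -0.14 to 0.0245, and the median of double RNAi against control from -0.11 to -0.0224. Without its 5 most counted genes the set held 34.6% of counts in control, 35.0% in BEAF-32 RNAi, 34.7% in row RNAi and 33.9% in double RNAi, and with sta and Rack1 added it held 41.4%, 42.0%, 41.5% and 40.6%.

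Over all tested genes 0 of 18 correlations between same-numbered libraries were over 0.1 (range -0.12 to 0.06). The median counting CV of all tested genes was 10.4%, so correlations over them could miss a shared step. Over the 85 genes alone 7 of 18 were over 0.1 (range -0.44 to 0.78). The highest were 0.78 between replicates 1 of control and BEAF-32 RNAi and 0.66 between replicates 3 of control and double RNAi. The lowest was -0.44, between replicates 3 of control and row RNAi. Whether same-numbered libraries shared a step was not tested. With the replicate block 0 genes were called in all comparisons, and the median in double RNAi against control was -0.06. The description by promoter motif was not run, since no promoter sequences were used here. The median CV within groups was 5.03% over the 85 genes, and counting error alone would give 0.880% if every count were an independent molecule; the part of depth in what could be called was not tested.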
